A study of Mus musculus with 18 samples.

Results

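The comparisons described here set loss of Cdk8 mRNA against block of the kinase in E0771 cells, a mouse mammary carcinoma line labelled triple negative, by RNA sequencing of bulk cells. The hairpins were followed side by side: shCdk8-1 (hairpin CDK8.1593) and shCdk8-2 (hairpin CDK8.1830), each in DMSO, were both compared with cntrl cells, which carried a Renilla luciferase hairpin and received 1 µM Senexin B for 48 h. The 3 groups held 3 libraries each, 9 of the 18 libraries of the series. All cells had first been given a puromycin-selected Firefly luciferase construct and then a retroviral hairpin vector with mCherry, and were sorted for mCherry as pools. Each hairpin was represented by 1 such line, so the hairpin and the line that carries it cannot be told apart. No source says that the replicates were separate transductions, and p-values therefore measure the spread between these libraries, which may be technical. The shCdk8 lines and cntrl cells also differed in the agent, DMSO against Senexin B, so each difference holds the step from cntrl to an shCdk8 line and the step from Senexin B to DMSO together. Both comparisons shared the 3 cntrl libraries in Senexin B.

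CDK8 is the kinase of a module that docks on Mediator, the complex that links transcription factors to RNA polymerase II. The module also holds cyclin C, MED12 and MED13, and the close relative CDK19 can take the place of CDK8. Senexin B binds the ATP pocket of CDK8 and CDK19, which leaves the proteins and the module in place, whereas a hairpin lowers the mRNA and, with it, the protein of CDK8 alone. CDK8 is known for acting in the interferon response and with beta-catenin and with SMADs in tumor cells.

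The targeted gene was measured first. Cdk8 (chr5:146231230-146302874, GRCm38) stood at 53.3, 53.8 and 57.1 CPM (read counts scaled to library size by TMM) in cntrl cells in Senexin B, at 22, 18.6 and 23.3 with shCdk8-1 and at 38.1, 38.6 and 38.9 with shCdk8-2. No library of one group overlapped with another. The log2 fold change was -1.36 ± 0.065 with shCdk8-1 and -0.51 ± 0.061 with shCdk8-2, adjusted p = 3.96e-11 and 2.89e-06. These and all adjusted p below came from edgeR's quasi-likelihood test with Benjamini-Hochberg adjustment. The level that was left differed between the hairpins by 0.85 ± 0.067 on the log2 scale, higher with shCdk8-2 (adjusted p = 3.07e-07). Senexin B itself left Cdk8 mRNA near its level in DMSO (log2 difference -0.03 ± 0.06, adjusted p = 0.86).

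Cdk19, the second kinase that Senexin B inhibits, stood at 102, 100.4 and 94.8 CPM in cntrl cells in Senexin B, at 122, 129 and 123 with shCdk8-1 and at 103, 100.1 and 101 with shCdk8-2. It was higher with shCdk8-1 by 0.33 ± 0.036 on the log2 scale (adjusted p = 8.14e-07), under the 2-fold change asked of a call. Its difference with shCdk8-2 was 0.04 ± 0.036 (adjusted p = 0.425). Ccnc, the cyclin partner of both kinases, had log2 differences of -0.18 ± 0.039 and -0.11 ± 0.039 (adjusted p = 0.000862 and 0.0201). The log2 differences of Med12, Med13 and Med13l, the scaffold subunits, ran from -0.22 to 0.04 and none passed the test. Med12l was too low to test. Of the 6 tested genes of the module only Cdk8 with shCdk8-1 was called. With shCdk8-2 edgeR and DESeq2 called none, and 3 of the 6 passed an unadjusted p of 0.05, where 7775 of the 12590 genes tested did.

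The 9 libraries held 17794820 to 22664693 counts (median 19333556), so that 3 counts, the limit a count of 0 allows in a library, came to 0.132 to 0.169 CPM. Mitochondrial genes took 0.449 to 1.56% of the counts. Across genes, libraries of the same group correlated at 0.994 to 0.996, shCdk8-1 libraries with cntrl libraries in Senexin B at 0.945 to 0.947, shCdk8-2 libraries with them at 0.959 to 0.962, and libraries of the different hairpins at 0.989 to 0.991.

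Over the 12590 genes tested, 1536 genes were called between shCdk8-1 in DMSO and cntrl in Senexin B with adjusted p below 0.05 and more than a 2-fold change. That is 12.2% of the genes, with 644 higher and 892 lower (5.12% and 7.08%). Between shCdk8-2 and the same cntrl libraries 1330 genes were called, 10.6%, with 607 higher and 723 lower (4.82% and 5.74%). Of the called genes, 704 with shCdk8-1 and 541 with shCdk8-2 differed by more than 4-fold, and 396 and 258 by more than 8-fold. The median log2 fold change over all genes was -0.0019 and 0.0035. Tested directly, shCdk8-2 in DMSO differed from shCdk8-1 in DMSO in 261 genes (2.07%), 173 higher with shCdk8-2 and 88 lower (1.37% and 0.699%). In the same fit, Senexin B against DMSO in cntrl cells gave 40 called genes, 29 higher and 11 lower.

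**Figure D1:**
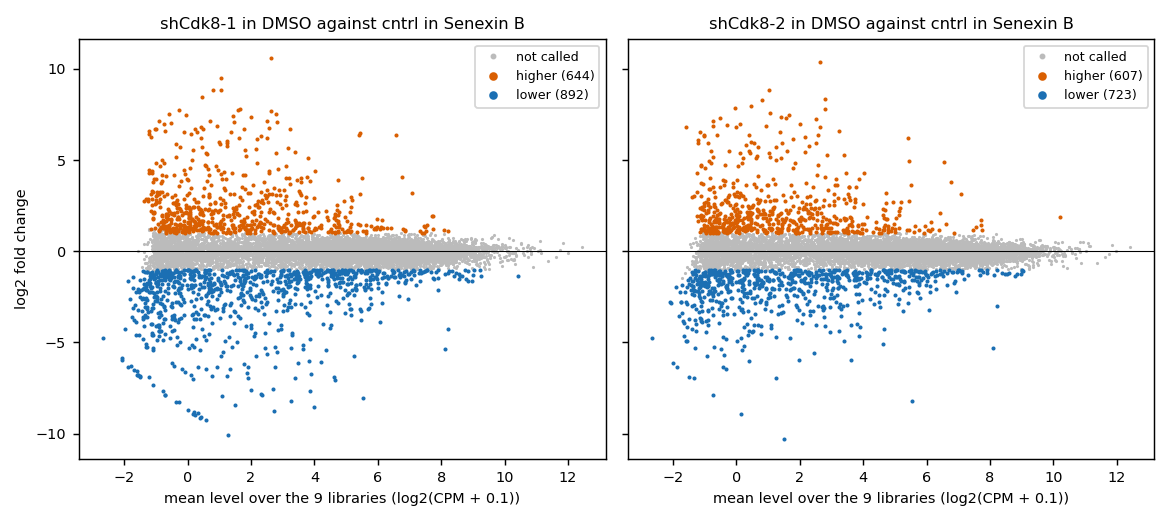
The log2 fold change of each of the 12590 tested genes (vertical axis) against its mean level over the 9 libraries (horizontal axis, log2(CPM + 0.1)) for shCdk8-1 and shCdk8-2 in DMSO against cntrl in Senexin B, with called genes in orange (higher, 644 and 607) and blue (lower, 892 and 723). Called genes lie at all levels. The points along the lower left edge are genes at or near 0 counts in an shCdk8 line, whose fitted fold changes depend on the fit's prior count.

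The identity of the cells was checked on lists of markers. Of 9 markers of mammary carcinoma cells, Krt18, Krt19, Krt7, Epcam and Pgr were too low to test, at no more than 0.34 CPM in any of the 9 libraries, and Krt19 and Pgr had no count. The simple epithelial keratins that define luminal cells were therefore at or near 0 in cntrl cells in Senexin B. Esr1, which encodes the estrogen receptor that a triple negative label excludes, stood at 24.1, 18.1 and 20.0 CPM there. It stood at 1.17, 1.53 and 1.03 with shCdk8-1 and 1.16, 1.01 and 0.652 with shCdk8-2, a log2 fold change of -4.06 ± 0.16 with shCdk8-1 and -4.42 ± 0.17 with shCdk8-2, adjusted p = 3.33e-12 and 2.88e-12. Erbb2 stood at 52.8 to 60.4 CPM in cntrl cells in Senexin B and at 46 to 51.1 and 45.3 to 48.3 in the shCdk8 lines. Of the 4 tested markers, 2 rose and 1 fell with shCdk8-1, and 1 rose and 1 fell with shCdk8-2. Over all genes 5.12% and 4.82% were called higher and 7.08% and 5.74% lower. The summed level of the 9 markers was 71.4 to 84.7 CPM in cntrl cells in Senexin B, 55.3 to 61.3 with shCdk8-1 and 58.9 to 62.8 with shCdk8-2.

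Among 16 markers of other cell types, 9 were too low to test, at no more than 0.598 CPM, and the T and NK cell markers Cd3e and Ncr1 and the fibroblast and lymphocyte marker Thy1 had no count. The pan-leukocyte marker Ptprc and the macrophage receptor Csf1r summed to 26 and 27 counts over the 3 cntrl libraries in Senexin B, to 1 and 1 with shCdk8-1 and to 0 and 5 with shCdk8-2. The macrophage marker Cd68 summed to 127 counts in cntrl in Senexin B, 105 with shCdk8-1 and 150 with shCdk8-2. The mesenchymal receptor genes Pdgfra and Pdgfrb were high in every group, with Pdgfra at 328 to 385 CPM in cntrl cells in Senexin B, 219.9 to 243 with shCdk8-1 and 245 to 261 with shCdk8-2. Their difference was under 2-fold for Pdgfra (-0.62 ± 0.054 and -0.47 ± 0.054 on the log2 scale) and for Pdgfrb (-0.92 ± 0.06 and -0.96 ± 0.06), except that Pdgfrb with shCdk8-2 reached -1.01 without shCdk8-2 replicate 2. Of the 7 tested markers 2 rose and 2 fell with shCdk8-1, and 1 rose and 2 fell with shCdk8-2. That is 57.1% and 42.9% called, where 12.2% and 10.6% of all genes were. The summed level of the list was 639 to 734 CPM in cntrl cells in Senexin B and 395 to 443 CPM in the shCdk8 libraries. Pdgfra and Pdgfrb made up nearly all of this sum. They had 20810 and 18637 counts over the cntrl libraries in Senexin B, where the next highest marker, Ly6g, had 213. Single genes of other lineages went in different directions. Ly6g, a neutrophil surface marker from a family with close copies, fell from 4.02, 3.29 and 3.47 CPM in cntrl cells in Senexin B to 0 counts with shCdk8-1, at least 69.8-fold lower, and to 3 counts with shCdk8-2. The endothelial adhesion gene Pecam1 rose from 0.326, 0.37 and 0.306 CPM to 14.6, 14.8 and 13.3 with shCdk8-1 and 6.04, 5.77 and 5.6 with shCdk8-2. The endothelial cadherin Cdh5 fell from 2.39, 2.59 and 1.94 to 0.233, 0.227 and 0.154 with shCdk8-1 and 0.56, 0.557 and 0.652 with shCdk8-2. Senexin B had lowered Cdh5 in cntrl cells (-0.89 ± 0.14 on the log2 scale, adjusted p = 0.00104). In bulk RNA, fewer cells that express a gene and less RNA per cell cannot be told apart, and the part of mixed cell types in the results below was not tested.

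The genes with the largest differences shared by both lines were read out at or near 0 in one state and clearly in the other. Galc (chr12:98202304-98259459), the lysosomal galactosylceramidase, had 0 counts in all 3 cntrl libraries in Senexin B, 9.14, 9.35 and 10.7 CPM with shCdk8-1 and 7.76, 8.56 and 9.29 CPM with shCdk8-2. With cntrl set to 3 counts over its 3 libraries, it was at least 193-fold higher with shCdk8-1 and at least 168-fold higher with shCdk8-2. Krt8 (chr15:101996711-102004342), the keratin of simple epithelia, had 0, 0.0463 and 0.0511 CPM in cntrl cells in Senexin B, 7.14, 7.76 and 7.5 with shCdk8-1 and 12, 13.2 and 13.5 with shCdk8-2. Its summed counts, 2 in cntrl, were higher by 222-fold (95% interval 61.1 to 1840) and 383-fold (95% interval 106 to 3170), with exact intervals that cover counting error only. Its partner keratin Krt18 had at most 3 counts in any group.

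Syk, a tyrosine kinase of immune receptor signaling, had 0.0544, 0.0463 and 0.0511 CPM in cntrl cells in Senexin B, 3 counts in all, against 12.4, 11.2 and 11.5 with shCdk8-1 and 6.21, 6.58 and 6.63 with shCdk8-2. The ratio of summed counts was 233-fold (95% interval 79.5 to 1130) and 128-fold (95% interval 43.6 to 624). Nr5a1, the nuclear receptor that drives steroid hormone synthesis, likewise went from 3 counts to 7.37, 8.11 and 7.92 with shCdk8-1 and 11.2, 14.3 and 13 with shCdk8-2. The summed counts of the T-box factor gene Tbx4 were higher by 301-fold (95% interval 53.7 to 11900) and 216-fold (95% interval 38.3 to 8560). Cfap97d2, Slc35g2, Ccdc85c and the adhesion receptor gene Adgrg6 followed the same form, from 1 to 3 counts over the cntrl libraries in Senexin B to between 3.69 and 9.4 CPM in the shCdk8 libraries.

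Loxl2, a lysyl oxidase that cross-links collagen, was measured above the floor in every library, at 0.707, 0.694 and 1.02 CPM in cntrl cells in Senexin B, 67.1, 67.2 and 65 with shCdk8-1 and 62, 59.6 and 59 with shCdk8-2. Its log2 fold change was 6.35 ± 0.097 with shCdk8-1 and 6.21 ± 0.098 with shCdk8-2, adjusted p = 1.02e-16 and 2.01e-16. Psen2, the catalytic presenilin of gamma-secretase, was higher by 6.77 ± 0.28 and 6.40 ± 0.29, and Pramef12, of the PRAME multigene family, by 6.69 ± 0.23 and 6.57 ± 0.24. In all 12 of these genes the 3 cntrl libraries in DMSO were also low, with Loxl2 at 0.429, 0.324 and 0.585 CPM, so the shCdk8 lines were the side that stood apart.

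Among the 12 genes with the largest falls in both lines, Fabp4 (chr3:10204088-10208576), the fatty acid-binding protein of adipocytes and macrophages, had the highest counts. It stood at 802, 799 and 753 CPM in cntrl cells in Senexin B, 20.9, 19 and 18.2 with shCdk8-1 and 20.0, 19.4 and 20.6 with shCdk8-2, a log2 fold change of -5.34 ± 0.06 with shCdk8-1 and -5.29 ± 0.06 with shCdk8-2, adjusted p = 2.37e-18 and 4.9e-18. The hairpins did not differ in it beyond the spread of the libraries (difference 0.04 ± 0.065, adjusted p = 0.69). Dkk2, a secreted modulator of Wnt signaling, fell from 9.62, 7.4 and 7.56 CPM to 1 count in all with shCdk8-1 and to 0 with shCdk8-2, where it was at least 166-fold lower. Senexin B had raised Fabp4 and Dkk2 in cntrl cells (0.27 ± 0.047 and 0.69 ± 0.15, adjusted p = 0.00239 and 0.0132). In DMSO, cntrl cells stood at 698, 636 and 623 CPM for Fabp4 and 5.77, 4.21 and 5.22 for Dkk2, also above both shCdk8 lines. Tent5a, a poly(A) polymerase, fell from 6.91, 6.71 and 6.95 CPM to 0 with shCdk8-1, at least 134-fold lower, and to 3 counts with shCdk8-2.

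Csgalnact1, which starts chondroitin sulfate chains, fell by 5.36 and 5.98 on the log2 scale, Sema5a, a guidance semaphorin, by 5.32 and 5.60, and Dock10, an activator of Cdc42 and Rac, by 4.79 and 4.65. Prickle2, of the planar cell polarity pathway, fell from 33.2, 28.5 and 28.8 CPM to 0.187, 0.283 and 0.257 with shCdk8-1 and 1.08, 0.912 and 0.924 with shCdk8-2. Hcls1 and Vav1, both signaling genes of blood cells, fell from 25.9 to 28.8 and from 5.78 to 7.1 CPM to no more than 0.14 and 0.103 CPM with shCdk8-1. With shCdk8-2 Hcls1 kept 1.34, 1.27 and 1.3 CPM and Vav1 0.302, 0.253 and 0.163 CPM. Lilr4b, a leukocyte receptor with close copies, fell from 3.26, 4.21 and 6.38 CPM to at most 0.0933 and 0.253.

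**Figure D2:**
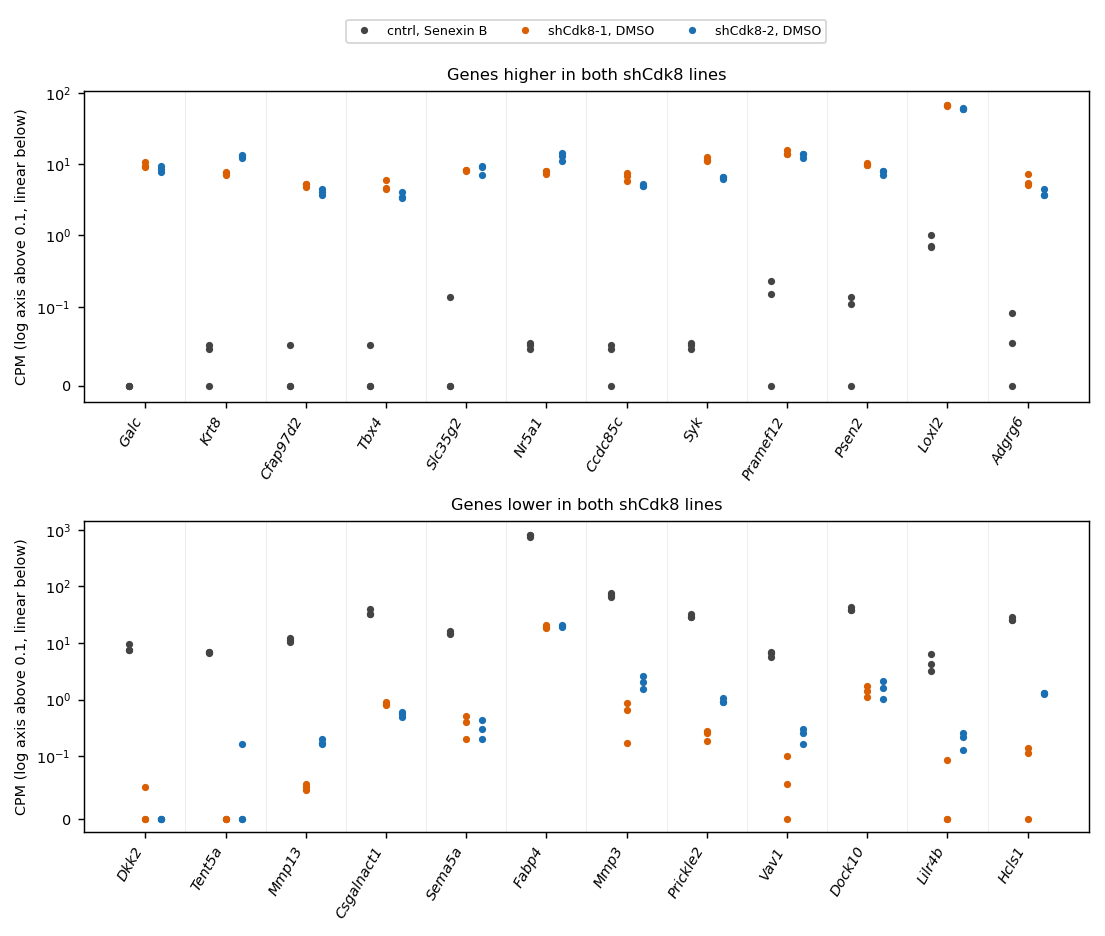
Level in each of the 9 libraries (points, CPM, axis linear below 0.1 and logarithmic above) of the 12 genes higher and the 12 genes lower in both shCdk8 lines, with cntrl in Senexin B in grey, shCdk8-1 in orange and shCdk8-2 in blue. No shCdk8 library overlaps with a cntrl library, as the choice of these genes required. Mmp3, Prickle2, Vav1 and Hcls1 lie lower with shCdk8-1 than with shCdk8-2.

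Matrix proteases and their inhibitors, which cut and protect the extracellular matrix, were called lower more than higher. Of 19 tested members, 8 fell and 1 rose with each hairpin, set against 7.08% and 5.74% of all genes called lower. The median over the list was -0.67 with shCdk8-1 and -0.19 with shCdk8-2 on the log2 scale. The collagenase gene Mmp13 and the stromelysin genes Mmp3 and Mmp10 are neighbours on chromosome 9, and all 3 fell in both lines. The 200 bases before their starts, from RefSeq on GRCm38.p6, are shown because each holds a match, in capitals, to the AP-1 motif TGANTCA, which was searched on both strands and reads the same on either. Over 32851 RefSeq promoters of 300 bases, 7.81% hold one, and such a match is a description of letters only.

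Mmp3 (chr9:7445622-7445821, plus strand): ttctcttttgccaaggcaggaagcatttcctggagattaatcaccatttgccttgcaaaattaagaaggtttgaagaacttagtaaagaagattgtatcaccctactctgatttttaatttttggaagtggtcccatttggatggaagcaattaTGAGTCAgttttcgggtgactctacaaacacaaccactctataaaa
Mmp10 (chr9:7502142-7502341, plus strand): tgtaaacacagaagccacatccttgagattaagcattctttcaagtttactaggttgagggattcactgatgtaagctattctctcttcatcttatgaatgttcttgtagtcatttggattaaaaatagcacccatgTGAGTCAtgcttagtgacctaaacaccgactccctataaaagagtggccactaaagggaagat
Mmp13 (chr9:7272314-7272513, plus strand): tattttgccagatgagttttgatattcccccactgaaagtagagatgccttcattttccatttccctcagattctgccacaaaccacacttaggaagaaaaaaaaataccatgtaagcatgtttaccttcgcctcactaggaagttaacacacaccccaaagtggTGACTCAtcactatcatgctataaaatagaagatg

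The matches begin 46, 63 and 35 bases before the starts of Mmp3, Mmp10 and Mmp13. Mmp3 fell from 75.6, 71.7 and 66.4 CPM in cntrl cells in Senexin B to 0.886, 0.17 and 0.668 with shCdk8-1 and 2.07, 1.57 and 2.66 with shCdk8-2. Its log2 fold change was -6.88 ± 0.17 with shCdk8-1 and -5.09 ± 0.14 with shCdk8-2, adjusted p = 1.34e-14 and 6.4e-14, and the hairpins differed by 1.79 ± 0.32 (adjusted p = 0.000842). Mmp13 fell from 12.3, 11.4 and 10.5 CPM to 3 counts in all with shCdk8-1 and to 0.172, 0.203 and 0.163 CPM with shCdk8-2. Mmp10 fell from 3.81, 2.82 and 4.29 CPM to 0.14, 0.17 and 0.103 with shCdk8-1 and 0.0862, 0.203 and 0.217 with shCdk8-2. Mmp3 was also the one of the 3 that Senexin B lowered in cntrl cells at an adjusted p under 0.05, from 106, 95.3 and 96.2 CPM in DMSO (-0.48 ± 0.084, adjusted p = 0.00244). The fold changes against cntrl in DMSO were -7.36 ± 0.16 and -5.56 ± 0.13. Jun, which encodes an AP-1 subunit, stood at 186, 184 and 186 CPM in cntrl cells in Senexin B, 97.3, 92.9 and 108 with shCdk8-1 and 101, 118 and 105 with shCdk8-2, a log2 difference of -0.90 ± 0.056 and -0.78 ± 0.056 (adjusted p = 1.02e-09 and 6.92e-09), under 2-fold. Whether the motif or Jun bears on these genes was not tested.

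The gelatinase gene Mmp9 fell from 10.1, 9.07 and 9.55 CPM to 1.12, 1.36 and 0.925 with shCdk8-1 and to 3.79, 5.22 and 3.64 with shCdk8-2. The log2 fold change was -3.07 ± 0.16 with shCdk8-1 and -1.18 ± 0.12 with shCdk8-2, adjusted p = 1.06e-10 and 5e-07, and the 1.89 ± 0.18 between the hairpins was itself past the threshold (adjusted p = 2.95e-06). The plasminogen activator gene Plat showed the same order, with 33.4 to 35 CPM in cntrl cells in Senexin B, 6.42 to 6.53 with shCdk8-1 and 13.9 to 15.2 with shCdk8-2. Adam8, a membrane protease, fell by 2.62 and 2.17 on the log2 scale. Adam19, a related membrane protease, and Reck, an inhibitor of matrix metalloproteases, fell as well. The call of Adam19 with shCdk8-1 was lost without shCdk8-1 replicate 1 (-0.96, adjusted p = 0.069) and without cntrl in Senexin B replicate 2 (-1.23, adjusted p = 0.0796), and in a fit of the 6 libraries compared (-1.53, adjusted p = 0.057). Against the rest of the list, the second gelatinase gene Mmp2 rose from 19.6, 15.7 and 17.6 CPM to 44.1, 44.5 and 44.1 with shCdk8-1 and 43, 41.6 and 44.1 with shCdk8-2, a log2 fold change of 1.33 ± 0.071 with shCdk8-1 and 1.28 ± 0.071 with shCdk8-2, adjusted p = 1.53e-10 and 3.27e-10.

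**Figure D3:**
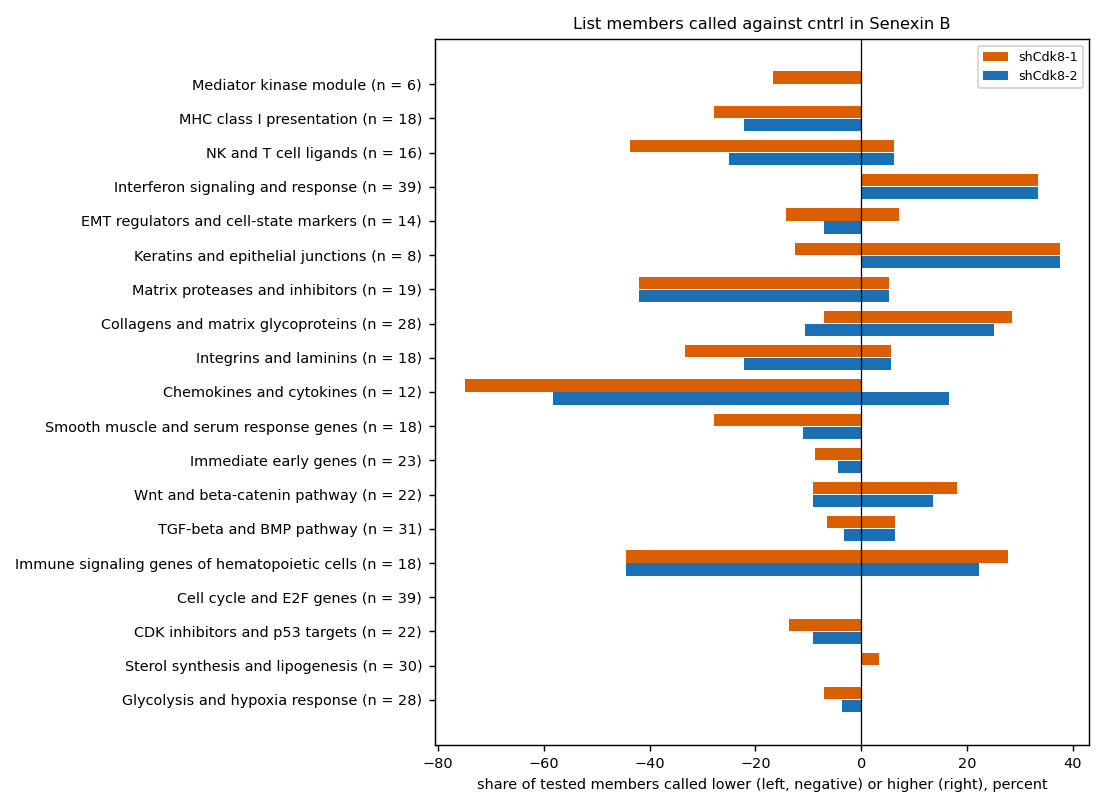
Share of the tested members of 19 gene lists called lower (bars to the left, negative percent) or higher (bars to the right) against cntrl in Senexin B, for shCdk8-1 (orange) and shCdk8-2 (blue), with the number of tested members beside each list. Interferon genes are called higher only, MHC class I genes lower only, and cell cycle genes not at all with either hairpin.

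Chemokines and cytokines, which recruit and steer leukocytes, were called in most tested members. Of 12 tested genes, 9 fell and none rose with shCdk8-1, and 7 fell and 2 rose with shCdk8-2, with medians of -1.97 and -1.19. Of all genes, 7.08% and 5.74% were called lower and 5.12% and 4.82% higher. Ccl2, a monocyte attractant, fell from 63.5, 72.5 and 73.8 CPM to 15.8, 16.8 and 15.2 with shCdk8-1 and 22.5, 25.2 and 20.7 with shCdk8-2, a log2 fold change of -2.14 ± 0.08 with shCdk8-1 and -1.62 ± 0.076 with shCdk8-2, adjusted p = 1.71e-12 and 4.48e-11. Its neighbours Ccl7 and Ccl8, which bind overlapping receptors, fell by 3.14 and 3.50 with shCdk8-1 and by 2.86 and 3.26 with shCdk8-2. Cx3cl1, the membrane-bound chemokine fractalkine, fell from 16.1, 15.9 and 15.3 CPM to 3.27, 2.95 and 2.93 with shCdk8-1 and 5.3, 5.42 and 4.51 with shCdk8-2. The alarmin gene Il33 fell from 6.52, 6.06 and 5.87 to 1.68, 0.85 and 0.925 with shCdk8-1 and 2.5, 2.18 and 2.77 with shCdk8-2. The cytokine genes Tnf and Lif fell by 2.75 and 1.80 with shCdk8-1 and by 1.66 and 1.07 with shCdk8-2. The 2 members that rose with shCdk8-2 were low: Ccl5, a T cell attractant, went from 0.87, 0.509 and 1.28 to 2.07, 1.47 and 2.44 CPM. Cxcl16 went from 0.217, 0.139 and 0.408 to 0.388, 0.557 and 1.14. Cxcl16 lost its call without shCdk8-2 replicate 3 (0.88, adjusted p = 0.146) or without cntrl in Senexin B replicate 1 (1.31, adjusted p = 0.0573) or 2 (1.08, adjusted p = 0.0986). Ccl5 lost it without cntrl in Senexin B replicate 2 (0.89). With shCdk8-1, Ccl5 (0.84) passed 2-fold only without shCdk8-1 replicate 1 (1.02) or cntrl in Senexin B replicate 3 (1.21). The call of Lif with shCdk8-2 was lost without shCdk8-2 replicate 3 (-0.95).

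Genes of MHC class I presentation, which load peptides and show them to T and NK cells, fell or were not called. Of 18 tested members, 5 fell with shCdk8-1 and 4 with shCdk8-2, where 7.08% and 5.74% of all genes were called lower. None rose, and the medians were -0.34 and -0.30. At an adjusted p under 0.05 alone, 14 were lower and 1 higher with shCdk8-1, and 12 lower and 3 higher with shCdk8-2, where 30.7% and 29.4% of all genes were lower. The 200 bases before the starts of the classical class I genes H2-K1 and H2-D1, both on chromosome 17, are shown because they carry a match to the kappaB motif (both strands searched), in capitals, where 2 overlapping windows match and 8.46% of all promoters hold at least 1.

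H2-K1 (chr17:34000348-34000547, minus strand): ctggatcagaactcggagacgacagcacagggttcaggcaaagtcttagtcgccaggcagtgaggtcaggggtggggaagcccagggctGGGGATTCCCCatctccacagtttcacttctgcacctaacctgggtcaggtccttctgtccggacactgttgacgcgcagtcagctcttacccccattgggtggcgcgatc
H2-D1 (chr17:35262894-35263093, plus strand): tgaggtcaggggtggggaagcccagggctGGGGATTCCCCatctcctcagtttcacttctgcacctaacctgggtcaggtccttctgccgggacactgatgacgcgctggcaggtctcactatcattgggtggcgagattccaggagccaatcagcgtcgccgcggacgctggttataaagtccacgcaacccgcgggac

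The first match begins 111 bases before the start of H2-K1 shown and 171 bases before that of H2-D1. H2-K1 stood at 103, 99.1 and 99.3 CPM in cntrl cells in Senexin B, 59.6, 55.6 and 61.4 with shCdk8-1 and 36.5, 40.3 and 38 with shCdk8-2. H2-D1 stood at 585, 583 and 589 CPM in cntrl cells in Senexin B, 252, 251 and 247 with shCdk8-1 and 298, 293 and 299 with shCdk8-2. The order of the hairpins was opposite in these genes. With shCdk8-2 against shCdk8-1 the difference was -0.62 ± 0.047 for H2-K1 (adjusted p = 2.09e-07) and 0.25 ± 0.031 for H2-D1 (adjusted p = 3.29e-05), both under 2-fold. Against cntrl in Senexin B, H2-K1 passed the 2-fold threshold only with shCdk8-2 (-0.77 and -1.39) and H2-D1 only with shCdk8-1 (-1.23 and -0.98). The class I genes are close copies of each other, and the counting command carried no option for reads that match several places, so the split between these genes is uncertain.

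Nlrc5, the transactivator of class I genes, fell from 76.5, 71.1 and 76.8 CPM to 19.7, 20.1 and 21.6 with shCdk8-1 and 22.9, 23.2 and 22.3 with shCdk8-2 (-1.87 ± 0.051 with shCdk8-1 and -1.71 ± 0.05 with shCdk8-2, adjusted p = 4.6e-14 and 2.09e-13). Psmb9, a catalytic subunit of the immunoproteasome, fell from 7.78, 6.53 and 6.38 to 0.886, 0.907 and 0.874 with shCdk8-1 and 1.64, 1.47 and 1.63 with shCdk8-2. The nonclassical gene H2-M3 fell by 1.37 and 1.15 on the log2 scale. B2m, the class I light chain, lay at the threshold, with -1.01 ± 0.035 for shCdk8-1 and -0.84 ± 0.034 for shCdk8-2. Its shCdk8-1 call was lost without shCdk8-1 replicate 1 (-1.0) or cntrl in Senexin B replicate 1 (-0.99), and when library totals replaced TMM (-0.97). The peptide transporter gene Tap1 had differences of -0.96 ± 0.046 and -0.98 ± 0.046 (adjusted p = 3.81e-11 and 3.99e-11), just under 2-fold. It passed 2-fold with shCdk8-2 without cntrl in Senexin B replicate 3 (-1.01). Tapbpl, which edits the loaded peptides, was the member with the largest positive difference, 0.92 ± 0.1 and 0.59 ± 0.11, also under 2-fold.

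Interferon signaling and response genes, induced through the interferon receptors and the interferon regulatory factors, were called in the opposite direction. Of 39 tested members, 13 rose and none fell with each hairpin, where 5.12% and 4.82% of all genes were called higher, and the medians were 0.59 and 0.54. At an adjusted p under 0.05 alone, 22 were higher and 7 lower with shCdk8-1, and 24 higher and 7 lower with shCdk8-2. The shares over all genes at this threshold were 29.4% and 28.3% higher and 30.7% and 29.4% lower. Oasl2, an antiviral gene of the oligoadenylate synthetase family, rose from 1.25, 0.879 and 1.02 CPM to 7.46, 6.86 and 7.92 with shCdk8-1 and 6.42, 6.99 and 5.82 with shCdk8-2, a log2 fold change of 2.83 ± 0.14 with shCdk8-1 and 2.62 ± 0.15 with shCdk8-2, adjusted p = 8.23e-11 and 3.79e-10. The RNA sensor gene Ifih1 rose from 4.08, 3.24 and 3.27 to 12.4, 11.6 and 12.2 with shCdk8-1 and 10.3, 10.0 and 10.2 with shCdk8-2. Its relative Dhx58 rose from 0.979, 1.57 and 2.25 to 6.11, 7.25 and 8.38 with shCdk8-1 and 5.73, 6.23 and 5.05 with shCdk8-2. Each of these groups stood clear of the cntrl libraries.

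Usp18, which removes ISG15 and dampens interferon signaling, rose by 1.74 ± 0.2 and 1.69 ± 0.2, the regulator gene Irf7 by 1.59 ± 0.21 and 1.66 ± 0.2, and the translation inhibitor gene Ifit1 by 1.46 ± 0.2 and 1.69 ± 0.19. Mx1 and Mx2, GTPases that block viruses, were low, with Mx1 at 0.217, 0.231 and 0.153 CPM in cntrl cells in Senexin B, 0.933, 0.964 and 1.23 with shCdk8-1 and 1.59, 1.93 and 1.36 with shCdk8-2. The receptor and kinase genes of the list were not called. No member of this list was called between the hairpins. Senexin B against DMSO in cntrl cells gave log2 differences of -0.47, -0.21 and -0.19 for Oasl2, Ifih1 and Usp18, none past the test (adjusted p = 0.272, 0.444 and 0.76).

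**Figure D4:**
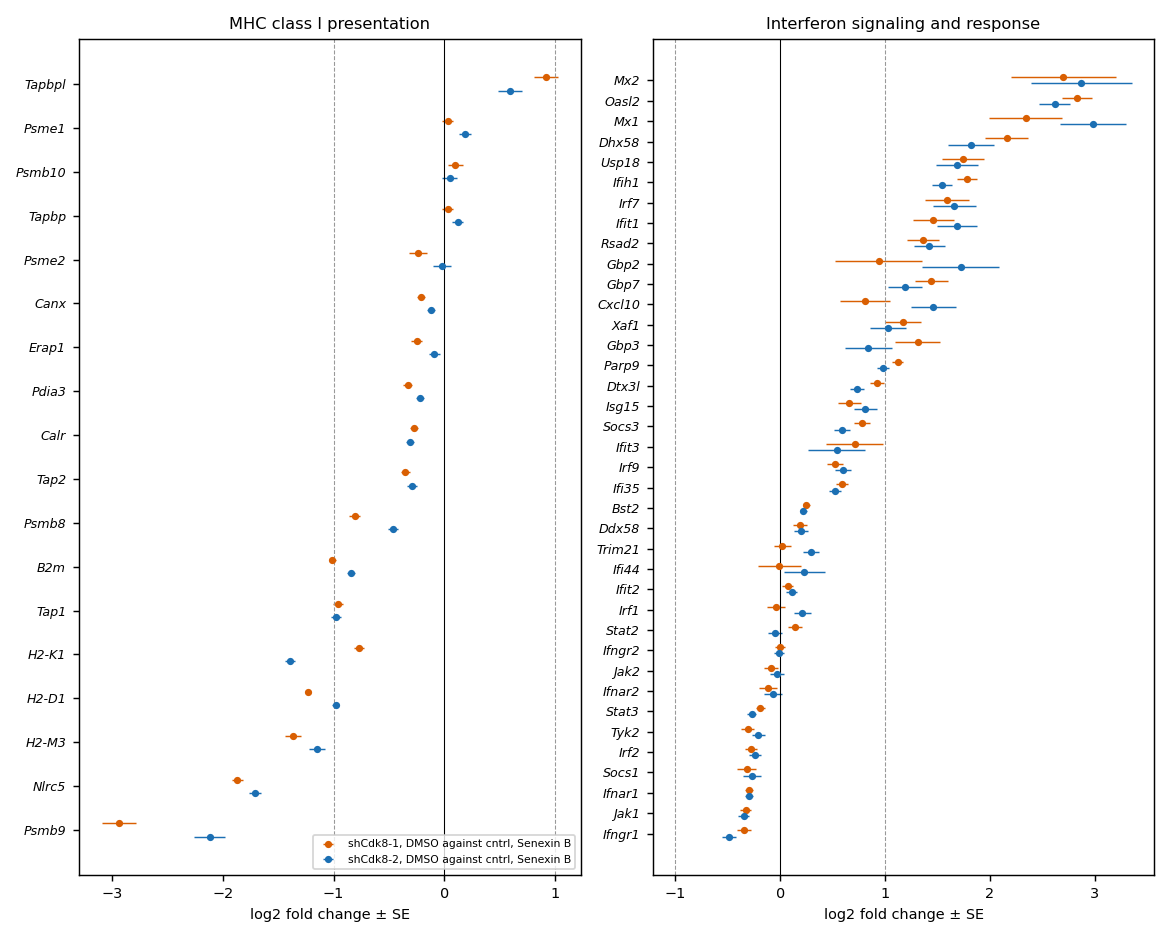
Log2 fold change against cntrl in Senexin B (horizontal axis, points with SE) of the 18 tested genes of MHC class I presentation and all but 1 of the 39 of interferon signaling and response, for shCdk8-1 (orange) and shCdk8-2 (blue), with dashed lines at a 2-fold change. Psmb9, Nlrc5 and H2-M3 lie below the lower line with both hairpins, while Oasl2, Mx1, Mx2, Dhx58, Usp18 and Ifih1 lie above the upper line.

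Ligands that NK and T cells read fell in 7 of 16 tested cases with shCdk8-1 and in 4 with shCdk8-2, with 1 higher in each, and medians of -0.73 and -0.48. The shares called were 50% and 31.2%, where 12.2% and 10.6% of all genes were. The gene that rose was Icam1, the adhesion ligand of LFA-1, from 1.09, 1.85 and 1.43 CPM to 2.75, 3.8 and 3.39 with shCdk8-1 and 6.9, 6.38 and 6.2 with shCdk8-2 (1.15 ± 0.18 with shCdk8-1 and 2.14 ± 0.16 with shCdk8-2, adjusted p = 5.16e-05 and 1.47e-08). Without cntrl in Senexin B replicate 1 its change with shCdk8-1 was 0.99, just under the threshold. Icam2, which binds the same receptor, fell from 1.3, 1.34 and 0.766 to 0.0933, 0.0567 and 0.0514 with shCdk8-1 and 0.172, 0.203 and 0.326 with shCdk8-2. Vcam1, an adhesion ligand of leukocyte integrins, fell by 1.87 and 1.08. Vcam1 lost its call with shCdk8-2 without shCdk8-2 replicate 3 (-0.81).

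Raet1d, a RAE-1 ligand of the activating receptor NKG2D with close copies, fell from 41, 43.9 and 40.2 CPM to 17.6, 16.9 and 17 with shCdk8-1 and 20.0, 18.9 and 21 with shCdk8-2. Clec2d, the ligand of an inhibitory NK receptor, fell from 14.7, 13.1 and 14.2 to 3.22, 4.31 and 2.83 with shCdk8-1 and 3.28, 3.65 and 4.08 with shCdk8-2. Clec2d was one of the genes that Senexin B raised in cntrl cells (0.56 ± 0.11, adjusted p = 0.0056), from 8.1, 10.4 and 9.8 CPM in DMSO. Cd274, which encodes PD-L1, was lower in both lines at 3.27, 2.49 and 2.26 with shCdk8-1 and 2.67, 3.44 and 2.44 with shCdk8-2 against 5.22, 4.86 and 5.41, short of 2-fold (-0.93 ± 0.15 with shCdk8-1 and -0.85 ± 0.15 with shCdk8-2, adjusted p = 7.02e-05 and 0.000156). It passed the threshold when shCdk8-1 replicate 1 (-1.11) or shCdk8-2 replicate 2 (-1.0) was left out. Fas, the death receptor gene, fell with shCdk8-1 from 3.42, 3.19 and 3.12 to 1.4, 1.42 and 1.44 CPM and stood at 2.8, 3.34 and 2.93 with shCdk8-2.

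Of 18 tested genes that carry immune signaling in blood cells, 8 fell with each hairpin and 5 rose with shCdk8-1 and 4 with shCdk8-2. The members did not move together. Inpp5d, the SHIP1 phosphatase, fell from 132, 117 and 114 CPM to 14.2, 12.6 and 14.3 with shCdk8-1 and 25.4, 23.8 and 24 with shCdk8-2. Lcp1, an actin bundler of leukocytes, fell from 25.5, 24.7 and 25.2 to 0.606, 1.47 and 1.39 with shCdk8-1 and 2.8, 2.84 and 2.88 with shCdk8-2. Senexin B had raised Lcp1 in cntrl cells (0.63 ± 0.087, adjusted p = 0.000393). Coro1a, an actin regulator of leukocytes, fell from 4.02, 5.09 and 4.08 to 0.373, 0.68 and 0.463 with shCdk8-1 and 0.604, 0.709 and 0.109 with shCdk8-2. Prkcb, a protein kinase C gene, fell to 3 counts over the shCdk8-1 libraries and 4 over the shCdk8-2 libraries. Syk rose, as above, and so did Plcg2, the phospholipase downstream of it, by 2.43 ± 0.17 and 1.35 ± 0.19. Of 18 genes, 72.2% and 66.7% were called, where 12.2% and 10.6% of all genes were. Of the leukocyte markers given above, Ptprc, Csf1r and Ly6g were lower in the same lines. Over cntrl in Senexin B, shCdk8-1 and shCdk8-2, Ptprc had 26, 1 and 0 counts, Csf1r 27, 1 and 5 and Ly6g 213, 0 and 3. Cd68 had 127, 105 and 150 counts and was not called. The part of such cells in these differences was not tested.

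Keratins and epithelial junction genes were scarce, with 8 of 29 listed genes tested, 3 higher with each hairpin and 1 lower with shCdk8-1, where 5.12% and 4.82% of all genes were called higher and 7.08% and 5.74% lower. Jup, the plakoglobin gene of desmosomes and adherens junctions, rose from 10.2, 6.76 and 7.2 CPM to 68.3, 72.1 and 67.3 with shCdk8-1 and 52.4, 56.2 and 51.7 with shCdk8-2 (3.12 ± 0.097 with shCdk8-1 and 2.74 ± 0.098 with shCdk8-2, adjusted p = 1.96e-13 and 1.65e-12). Pkp3, another desmosome gene, rose by 1.68 ± 0.25 and 2.21 ± 0.23. Pkp3 had been lowered in cntrl cells by Senexin B (-1.14 ± 0.27, adjusted p = 0.0214), from 1.47, 1.73 and 1.27 to 0.816, 0.648 and 0.562 CPM, and its difference to cntrl in DMSO was 0.55 ± 0.21 and 1.07 ± 0.2. Occludin, a tight junction protein encoded by Ocln, fell by 1.29 with shCdk8-1 and differed by -0.87 with shCdk8-2. Krt8 was the third gene that rose.

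Of 14 tested regulators and markers of the epithelial to mesenchymal transition, 1 rose and 2 fell with shCdk8-1 and 1 fell with shCdk8-2, with medians of -0.56 and -0.42. That is 21.4% and 7.14% called, where 12.2% and 10.6% of all genes were. At an adjusted p under 0.05 alone, 9 of the 14 were lower with each hairpin, where 30.7% and 29.4% of all genes were. At that threshold 1 was higher with shCdk8-1 and none with shCdk8-2. With shCdk8-1 the epithelial cadherin gene Cdh1 rose from 0, 0.139 and 0.255 CPM to 0.606, 0.793 and 0.565 (2.22 ± 0.63, adjusted p = 0.00646). Grhl2, a factor that maintains epithelial cells, fell from 0.598, 0.602 and 0.868 CPM to 0.327, 0 and 0 (-2.47 ± 0.67, adjusted p = 0.0048). With shCdk8-2 neither was called (0.84 and -0.92, adjusted p = 0.38 and 0.142). Snai2, a repressor of epithelial genes, was low, at 1.41, 1.25 and 0.919 CPM in cntrl cells in Senexin B, 0.0933, 0.17 and 0 with shCdk8-1 and 0.345, 0.253 and 0.163 with shCdk8-2, and had a log2 fold change of -3.71 ± 0.47 with shCdk8-1 and -2.17 ± 0.36 with shCdk8-2, adjusted p = 4.18e-06 and 8.96e-05. Zeb1, a repressor of the same kind, was lower in all shCdk8 libraries at under 2-fold (-0.74 ± 0.038 and -0.70 ± 0.038, adjusted p = 9.92e-11 and 2.8e-10). The mesenchymal filament gene Vim stood at 4038 to 4201 CPM in cntrl cells in Senexin B, 3784 to 3966 with shCdk8-1 and 4090.0 to 4229 with shCdk8-2, and did not pass the test.

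Collagens and matrix glycoproteins went both ways. Of 28 tested members, 8 rose and 2 fell with shCdk8-1, and 7 rose and 3 fell with shCdk8-2, with medians of -0.06 and -0.13. The share called was 35.7% with each hairpin, where 12.2% and 10.6% of all genes were. Besides Loxl2, described above, Thbs2, a thrombospondin that limits vessel growth, rose from 5.38, 3.93 and 4.49 CPM to 71.6, 77.4 and 72.2 with shCdk8-1 and 59, 56.9 and 57 with shCdk8-2 (4.01 ± 0.096 with shCdk8-1 and 3.65 ± 0.097 with shCdk8-2, adjusted p = 9.39e-15 and 6.4e-14). In cntrl cells Senexin B had raised Thbs2 as well, from 1.59, 2.81 and 2.15 CPM (1.05 ± 0.16, adjusted p = 0.0009). Col1a1, the main chain of type I collagen, rose from 1.96, 0.972 and 1.02 to 15, 18.2 and 16.3 with shCdk8-1 and 10.6, 9.72 and 9.18 with shCdk8-2. Col3a1, the type III collagen, had differences under 2-fold, -0.88 ± 0.046 and -0.62 ± 0.046, at 2464 to 2760.0 CPM in cntrl cells in Senexin B, 1366 to 1447 with shCdk8-1 and 1642 to 1732 with shCdk8-2.

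Col6a3, a chain of type VI collagen, fell from 209, 117 and 136 CPM to 18.2, 28.3 and 18.6 with shCdk8-1 and 30.8, 32.8 and 34.5 with shCdk8-2. Senexin B had raised it in cntrl cells from 81.6, 67.8 and 71 CPM (1.07 ± 0.17, adjusted p = 0.00113). Tenascin C (Tnc), a matrix protein of wounds and tumors, fell from 22, 15.6 and 17.3 CPM to 3.17, 4.25 and 3.55 with shCdk8-1 and stood at 8.66, 10.1 and 9.29 with shCdk8-2, where its difference of -0.97 passed 2-fold only without shCdk8-2 replicate 2 (-1.03) or cntrl in Senexin B replicate 2 (-1.07). Osteopontin (Spp1), a secreted glycoprotein of bone and tumors, stood at 266, 241 and 241 CPM in cntrl cells in Senexin B, 236, 231 and 233 with shCdk8-1 and 127, 119.7 and 119 with shCdk8-2. It was called with shCdk8-2 (-1.03), and no longer without cntrl in Senexin B replicate 1 (-0.98) or with library totals (-0.97). Of 18 tested integrins and laminins, 6 fell with shCdk8-1 and 4 with shCdk8-2, and 1 rose with each, where 7.08% and 5.74% of all genes were called lower. Itgb7, a leukocyte integrin chain, fell from 64.3, 67.8 and 66.6 to 6.48, 6.58 and 5.86 with shCdk8-1 and 19.1, 21.8 and 18.9 with shCdk8-2. Itgb2, another leukocyte chain, fell from 23.6, 22.9 and 23.7 to 5.6, 5.38 and 7.3 with shCdk8-1 and 8.71, 10.4 and 9.73 with shCdk8-2. Senexin B had lowered Itgb7 and Itgb2 in cntrl cells (-0.33 ± 0.052 and -0.47 ± 0.086, adjusted p = 0.00113 and 0.0037). The collagen receptor gene Itga1 fell by 1.20 and 1.21, and Itgb3 fell by 1.68 with shCdk8-1 and had a difference of -0.71 with shCdk8-2, not called.

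CDK8 is known to act in Wnt and TGF-beta signaling. In the Wnt and beta-catenin list, 4 of 22 tested genes rose and 2 fell with shCdk8-1, and 3 rose and 2 fell with shCdk8-2. That is 27.3% and 22.7% called, where 12.2% and 10.6% of all genes were, and the medians were 0.09 and 0.08. The secreted Wnt inhibitor gene Wif1 had 1 count over the cntrl libraries in Senexin B, 3.27, 3.63 and 2.98 CPM with shCdk8-1 and 0.992, 1.47 and 1.25 with shCdk8-2. The ligand gene Wnt6 rose from 2.07, 2.22 and 1.99 to 6.11, 6.12 and 5.81 with shCdk8-1 and 7.2, 8.0 and 7.23 with shCdk8-2. The ligand gene Wnt7b and the receptor gene Fzd2 rose by 1.32 and 1.26 with shCdk8-1 and differed by 0.87 and 0.92, not called, with shCdk8-2. In the TGF-beta and BMP list, 2 of 31 tested genes rose with each hairpin, and 2 fell with shCdk8-1 and 1 with shCdk8-2. These shares, 12.9% and 9.68%, were near those of all genes. Tgfbi, a matrix protein named for its induction by TGF-beta, rose from 19.5, 22.4 and 22.1 CPM to 194, 205 and 198 with shCdk8-1 and 186, 195 and 183 with shCdk8-2. The receptor gene Tgfbr2 fell from 96.8, 91.3 and 88 to 33.8, 34.1 and 34.1 with shCdk8-1 and 33.2, 35.7 and 34.6 with shCdk8-2. Ltbp1, which stores latent TGF-beta in the matrix, fell by 1.29 with shCdk8-1 and differed by -0.94 with shCdk8-2. Smad9, a low-level signal transducer of BMPs, rose by 1.19 ± 0.29 and 1.44 ± 0.27.

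None of the 39 cell cycle and E2F genes was called with either hairpin by edgeR or by DESeq2. At an unadjusted p of 0.05, 24 and 26 passed, where 8009 and 7775 of the 12590 genes did. At an adjusted p under 0.05 without the fold threshold 24 and 26 passed, against 60.1% and 57.7% of all genes. Of these, 20 were higher and 4 lower with shCdk8-1, and 18 higher and 8 lower with shCdk8-2. Over all genes 29.4% and 28.3% were higher and 30.7% and 29.4% lower. The medians were 0.13 and 0.08. Pcna, the sliding clamp of replication, stood at 76.6, 83.6 and 83.9 CPM in cntrl cells in Senexin B, 76.4, 80.9 and 79.7 with shCdk8-1 and 87, 83.1 and 82.9 with shCdk8-2. Of 22 tested CDK inhibitors and p53 targets, 3 fell with shCdk8-1 and 2 with shCdk8-2, which is 13.6% and 9.09% called, near the 12.2% and 10.6% of all genes. Cdkn1a, the p21 gene, was higher with shCdk8-1 by 0.53 ± 0.05 (adjusted p = 1.37e-07) and with shCdk8-2 its difference was 0.12 ± 0.051 (adjusted p = 0.0555), neither reaching 2-fold. The stress cytokine gene Gdf15 stood at 8.86, 9.35 and 9.75 CPM in cntrl cells in Senexin B, 4.8, 5.38 and 6.79 with shCdk8-1 and 4.27, 4.36 and 5.27 with shCdk8-2. It was called with shCdk8-2 alone (-1.02) and no longer called without shCdk8-2 replicate 1 (-0.95) or 2 (-0.98) or cntrl in Senexin B replicate 3 (-0.98), or with library totals (-0.95).

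Sterol synthesis and lipogenesis genes were mostly higher, by less than 2-fold. Of 30 tested members only Lss, the lanosterol synthase, was called, with shCdk8-1, where 5.12% of all genes were called higher. It rose there from 72.8, 67.3 and 69.2 to 160.1, 161 and 159 CPM, and stood at 102, 107 and 104 with shCdk8-2. At an adjusted p under 0.05 alone, 23 members were higher and none lower with shCdk8-1, and 18 were higher and 4 lower with shCdk8-2, against 29.4% and 28.3% of all genes higher. Hmgcs1, at the entry of the pathway, went from 139, 126 and 132 CPM to 247, 250.1 and 244 with shCdk8-1 and 226, 212 and 217 with shCdk8-2 (0.90 ± 0.038 and 0.72 ± 0.038 on the log2 scale). Sqle, the squalene epoxidase, went from 164, 158 and 159 to 262, 257 and 260.0 with shCdk8-1 and 211, 207 and 202 with shCdk8-2. In the direct comparison 26 of the 30 were lower with shCdk8-2 than with shCdk8-1 at an adjusted p under 0.05, where 10.6% of all genes were, and none by over 2-fold. Of 28 glycolysis and hypoxia genes, 2 fell with shCdk8-1 and 1 with shCdk8-2, namely Eno2, a neuronal enolase, with shCdk8-1 (-1.10, and -0.99 without cntrl in Senexin B replicate 3) and the vasodilator gene Adm with both. These shares, 7.14% and 3.57%, were near or below the 7.08% and 5.74% of all genes called lower.

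In Adm the difference between Senexin B and DMSO in cntrl cells was 0.99 ± 0.058, adjusted p = 4.53e-08, against -0.20 ± 0.061 and -0.43 ± 0.062 for the shCdk8 lines to cntrl in DMSO. Acta2 (chr19:34241090-34255336), the smooth muscle actin, also depended on the agent. It stood at 132, 147 and 144 CPM in cntrl cells in DMSO, 419, 425 and 408 in cntrl cells in Senexin B, 93.9, 91.9 and 96.3 with shCdk8-1 and 205, 215 and 200.5 with shCdk8-2. Senexin B had raised it by 1.56 ± 0.041 on the log2 scale in cntrl cells (adjusted p = 2.11e-12). Against cntrl in Senexin B its log2 fold change was -2.15 ± 0.043 with shCdk8-1 and -1.01 ± 0.04 with shCdk8-2, adjusted p = 1.26e-15 and 6.07e-12. Against cntrl in DMSO shCdk8-1 lay below and shCdk8-2 above (-0.59 ± 0.043 and 0.55 ± 0.041, adjusted p = 5.94e-09 and 1.36e-08). With Senexin B on both sides, in a fit of all 18 libraries, Acta2 stood at 208 to 236 CPM with shCdk8-1 and 415 to 425 with shCdk8-2. The differences to cntrl in Senexin B were -0.90 ± 0.045 and 0.01 ± 0.044 (adjusted p = 7.75e-13 and 0.898). The call with shCdk8-2 lay at the threshold and was lost without shCdk8-2 replicate 1 (-1.0) or 3 (-0.98) or cntrl in Senexin B replicate 2 (-0.99), and with library totals (-0.95).

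The list of smooth muscle and serum response genes, to which Acta2 belongs, had 5 of 18 tested members lower with shCdk8-1 and 2 with shCdk8-2, and none higher. Over all genes 7.08% and 5.74% were called lower. At an adjusted p under 0.05 alone 15 and 14 were lower, against 30.7% and 29.4% of all genes. Mylk, the myosin light chain kinase, fell from 59.1, 52 and 51.7 CPM to 6.16, 5.84 and 3.85 with shCdk8-1 and 8.1, 7.5 and 7.83 with shCdk8-2. With Senexin B in cntrl cells its difference was -0.05 ± 0.082, adjusted p = 0.833. Actg2, a smooth muscle actin, resembled Acta2 in part, with 0.429, 0.486 and 0.78 CPM in cntrl cells in DMSO, 2.39, 3.38 and 3.32 in Senexin B, 0.42, 0.453 and 0.103 with shCdk8-1 and 1.85, 2.28 and 1.2 with shCdk8-2. It was not called with shCdk8-2 (-0.77), and shCdk8-1 against cntrl in DMSO did not pass the test (-0.82, adjusted p = 0.175). With Senexin B on both sides its differences were -0.83 with shCdk8-1 and 1.02 with shCdk8-2 (adjusted p = 0.00269 and 4.83e-05). Tpm4, a tropomyosin, stood at 444, 434 and 445 CPM with shCdk8-1 and 462, 441 and 460.5 with shCdk8-2 against 890.1, 891 and 893, close to 2-fold (-1.02 and -0.97), and its call with shCdk8-1 was lost when library totals replaced TMM (-0.97). Senexin B had raised Tpm4 in cntrl cells (0.15 ± 0.035, adjusted p = 0.0173), and its differences to cntrl in DMSO were -0.87 and -0.82.

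Some genes passed an adjusted p of 0.05 in one direction with Senexin B in cntrl cells and in the other with both hairpins, all against cntrl in DMSO. There were 69 among the protein-coding genes called in both main comparisons with at least 1 CPM in the highest group. A call against cntrl in Senexin B is reached more easily where Senexin B and the hairpins go opposite ways, and these comparisons share libraries. The number therefore describes the choice of genes and is not a result about them. Kcnmb1, the smooth muscle subunit of a calcium-activated potassium channel, stood at 1.29, 1.4 and 1.36 CPM in cntrl cells in DMSO, 5.82, 4.21 and 5.16 in Senexin B, 0.513, 0.567 and 0.668 with shCdk8-1 and 0.56, 0.506 and 0.489 with shCdk8-2. Of its log2 difference of -3.10 ± 0.19 and -3.26 ± 0.19 to cntrl in Senexin B, 1.89 lay between Senexin B and DMSO in cntrl cells. The chemokine gene Ccl7 likewise went from 36.1, 42.7 and 43.9 CPM up to 91.6, 111 and 107 with Senexin B and down to 11.3, 12.4 and 11.5 with shCdk8-1 and 13, 14.6 and 15.1 with shCdk8-2. With Senexin B on both sides the differences were -1.72 ± 0.17 and -1.48 ± 0.17 for Kcnmb1 and -2.70 ± 0.084 and -2.10 ± 0.08 for Ccl7. Crabp2, which carries retinoic acid, was the one of the 8 named genes that Senexin B lowered, from 0.307, 0.324 and 0.488 to 0.0544, 0.185 and 0.0511 CPM, against 1.54, 1.81 and 1.59 with shCdk8-1 and 0.862, 0.81 and 0.978 with shCdk8-2. Actr3b, an Arp3 relative, the adaptor gene Sla, the lysophospholipid acyltransferase gene Lpcat2, the bone sialoprotein gene Ibsp and Cyp2b13 of the cytochrome P450 family were low, at no more than 2.34 CPM in any library of the fit.

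In 6 protein-coding genes called in both main comparisons, at 1 CPM or more in the highest group, Senexin B passed the test in cntrl cells. Neither hairpin did so against cntrl in DMSO, with the tests taken at an adjusted p of 0.05 alone. Cda, the cytidine deaminase, stood at 9.69, 10.6 and 10.8 CPM in cntrl cells in DMSO, 4.89, 5.18 and 5.82 in Senexin B, 12.8, 9.12 and 9.77 with shCdk8-1 and 11.8, 10.4 and 11.2 with shCdk8-2. Its call with shCdk8-1 (1.00) lay at the threshold and was lost without shCdk8-1 replicate 1 (0.84) or cntrl in Senexin B replicate 1 (0.95) or 2 (0.99). Igfbp5, which binds insulin-like growth factors, stood at 0.92, 0.971 and 1.32 CPM in cntrl cells in DMSO, 2.83, 2.54 and 2.35 in Senexin B, 0.746, 0.85 and 0.771 with shCdk8-1 and 1.21, 0.962 and 1.36 with shCdk8-2. Clca2, the inhibitory Fc receptor gene Fcgr2b and Lect2 were at or under 1.99 CPM.

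The sixth gene rested on 1 library. Egr1, an immediate early transcription factor gene, stood at 0.381, 414 and 0.817 CPM in the cntrl libraries in Senexin B, 0.614, 1.19 and 0.731 in DMSO, 0.606, 0.453 and 0.463 with shCdk8-1 and 0.69, 0.456 and 0.217 with shCdk8-2. With cntrl in Senexin B replicate 2 the log2 fold change was -8.07 ± 2 with shCdk8-1 and -8.19 ± 2 with shCdk8-2, adjusted p = 0.00243 and 0.0024. Without that library it was -0.23, adjusted p = 0.702, with shCdk8-1, and -0.35, adjusted p = 0.567, with shCdk8-2. Egr1 was the only gene over 5 CPM and over 10 times the next library in any single library of the 12 fitted. It was 1 of the 2 immediate early genes called lower with shCdk8-1, beside the stress gene Ier3 (-1.12), and the only one called with shCdk8-2, of 23 tested. Senexin B had raised Ier3 in cntrl cells (0.20 ± 0.039, adjusted p = 0.00452), and with shCdk8-1 Ier3 differed from cntrl in DMSO by -0.92. Over all genes 7.08% and 5.74% were called lower.

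**Figure D5:**
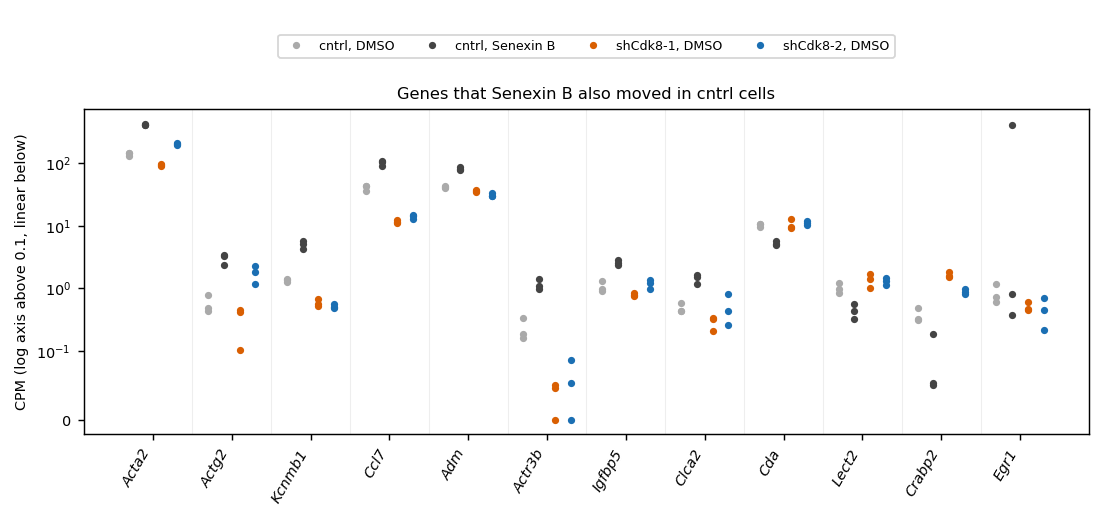
Level in each of 12 libraries (points, CPM, axis linear below 0.1 and logarithmic above) of 12 genes that Senexin B also moved in cntrl cells, with cntrl in DMSO in light grey, cntrl in Senexin B in dark grey, shCdk8-1 in orange and shCdk8-2 in blue. Acta2 and Actg2 with shCdk8-2 lie above cntrl in DMSO but below cntrl in Senexin B, and Egr1 is high in 1 library only.

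The hairpins differed from each other most in genes that were almost lost with shCdk8-1 and partly kept with shCdk8-2. Psd4, an activator of the GTPase ARF6, stood at 41.7, 38.7 and 40.9 CPM in cntrl cells in Senexin B, 0, 0.17 and 0.154 with shCdk8-1 and 6.64, 5.77 and 6.41 with shCdk8-2 (difference between the hairpins 5.85 ± 0.26, adjusted p = 7.39e-10). Flrt3, a membrane protein of cell adhesion, fell from 16.7, 18 and 18 CPM to 2 counts in all with shCdk8-1 and to 1.98, 1.82 and 1.9 CPM with shCdk8-2. Pmaip1, the p53-induced death gene Noxa, fell from 12.8, 14.2 and 13.1 CPM to 3 counts and to 1.34, 1.52 and 1.25 CPM. Gimap6, a GTPase of lymphocytes, fell to 0.0466, 0.0567 and 0.154 CPM with shCdk8-1 and 1.94, 2.13 and 1.96 with shCdk8-2 from 17.6, 15.8 and 17.7. Pcdh12, an endothelial protocadherin, fell from 10.2, 8.98 and 8.27 CPM to 0.0466, 0.0567 and 0.103 with shCdk8-1 and 1.12, 2.38 and 1.63 with shCdk8-2. Senexin B had lowered Pcdh12 in cntrl cells (-0.58 ± 0.125, adjusted p = 0.0105). In these 5 genes all 3 groups stood clear of each other.

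The 5 genes with the largest differences in the other direction, lower with shCdk8-2 than with shCdk8-1, did not share 1 form. Slc14a2, a urea transporter, was the one that went further with shCdk8-2, and fell from 8.59, 7.77 and 6.23 CPM to 1.73, 1.76 and 1.03 with shCdk8-1 and 0.302, 0.253 and 0.272 with shCdk8-2. Thbs1, a thrombospondin, rose in both lines, from 0.109, 0.0925 and 0.102 CPM to 5.08, 6.41 and 6.32 with shCdk8-1 and 1.03, 0.456 and 0.706 with shCdk8-2 (difference -2.97 ± 0.21, adjusted p = 1.16e-07). Ppargc1a, the coactivator of mitochondrial biogenesis, rose from 3.97, 3.98 and 3.47 to 29, 29.5 and 30.6 with shCdk8-1 and stood at 6.25, 6.89 and 5.76 with shCdk8-2, higher there by less than 2-fold (0.73 ± 0.11, adjusted p = 3.32e-05). Ctsh, the lysosomal protease cathepsin H, rose from 2.66, 1.99 and 2.71 to 8.02, 9.86 and 10.6 with shCdk8-1 and stood at 2.46, 2.73 and 2.01 with shCdk8-2. Transferrin (Trf) rose with shCdk8-1 (1.03 ± 0.17) and was lower with shCdk8-2, short of a call (-0.87 ± 0.22). Its shCdk8-1 call was lost without shCdk8-1 replicate 2 (0.94) or cntrl in Senexin B replicate 2 (0.99) or 3 (0.92).

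Among the lists, the direct comparison of the hairpins called 3 of 19 matrix proteases (Mmp3, Mmp9 and Plat) and 3 of 18 smooth muscle genes (Actg2, Acta2 and Synpo2) higher with shCdk8-2, none lower in either list, where 1.37% of all genes were called higher. edgeR called no MHC class I, interferon, cell cycle, TGF-beta, sterol or glycolysis gene between the hairpins. Of their 18, 39, 39, 31, 30 and 28 tested genes, 13, 11, 14, 10, 27 and 19 passed an unadjusted p of 0.05, where 4262 of all 12590 did. Synpo2, an actin-binding protein of muscle, lost this call without shCdk8-1 replicate 1 (1.13, adjusted p = 0.0774) or 3 (1.20, adjusted p = 0.0623) or shCdk8-2 replicate 1 (1.07, adjusted p = 0.0992). The difference in Vav1 (2.12 ± 0.67, adjusted p = 0.032) was lost without shCdk8-1 replicate 1 (1.53, adjusted p = 0.161) or 2 (2.18, adjusted p = 0.0703) or shCdk8-2 replicate 1 (1.91, adjusted p = 0.117) or 2 (2.10, adjusted p = 0.0673). It was also lost with DESeq2 (2.25, adjusted p = 0.0706) and in a fit of the 9 libraries alone (adjusted p = 0.0532). The summed counts behind it were 15 with shCdk8-2 and 3 with shCdk8-1. Of the 261 genes called between the hairpins, shCdk8-1 lay further from cntrl in Senexin B in 224 and shCdk8-2 in 37. Both distances were taken from the same cntrl libraries. Over all genes shCdk8-1 also had more calls against cntrl in Senexin B, 12.2% against 10.6% with shCdk8-2. Its called genes above 8-fold numbered 396 against 258. The share of all genes in which shCdk8-1 lay further was not taken. With 1 line per hairpin the level of Cdk8 and the line cannot be told apart.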

How the data were processed

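Bulk RNA of E0771 cells was sequenced in 18 libraries, of which 9 belong to the comparisons described here. The authors trimmed the reads with Trimmomatic, aligned them with STAR to GRCm38 and counted them per gene on the reverse strand with featureCounts 1.5.1 against GENCODE exons. The deposited counts are whole, raw read counts for 50686 genes, used here as deposited. The library totals were 17794820 to 22664693 counts, and intervals and floors drawn from them cover counting error only.

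Genes that passed filterByExpr of edgeR 4.0.16 in R 4.3.3 (minimum count 10, minimum total 15) were kept, scaled by TMM and tested with edgeR's quasi-likelihood F test, two-sided, in 1 fit of 12 libraries, namely the 9 and the 3 cntrl libraries in DMSO. P-values were adjusted by Benjamini-Hochberg over all 12590 genes, and a call asked for an adjusted p below 0.05 together with more than a 2-fold change. Contrasts with Senexin B on both sides came from a fit of all 18 libraries. CPM are counts scaled to library size by TMM. A fold against a group with 0 counts was set against 3 counts over the group, and a ratio of 1 to 3 counts was given with its exact 95% interval. The fit was tested on simulated data.

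Groups and replicate numbers came from the labels. In the file headers the shCdk8-2 libraries labelled 1, 2 and 3 carry the numbers 2, 3 and 3. The genes, the 21 gene lists and the marker lists were chosen with earlier results of these data known. Named were, among protein-coding genes with at least 5 CPM in the highest group, the 12 most increased and 12 most decreased genes called in both comparisons without overlap with cntrl, and the 5 largest differences between the hairpins in each direction. At 1 CPM or more, the 6 genes where Senexin B alone passed against cntrl in DMSO, the 8 where it opposed both hairpins, and up to 5 called genes of each list were added, with the genes the study names. A further 35 genes were chosen after their values were seen. Alternatives were DESeq2 1.42.0, glmTreat, other scaling, filters, thresholds and sets of libraries, a replicate block and each library left out in turn. Promoters were taken from RefSeq on GRCm38.p6, matched by symbol. Hairpin sequences and the values of 3 list members are not reported here.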

Additional observations from a re-analysis of the deposited data

Results flagged for a closer look

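In 29 of the 147 genes compared by name the hairpins differed when shCdk8-2 was tested directly against shCdk8-1 in DMSO, 20 higher and 9 lower with shCdk8-2. Over all genes the share called was 2.07%. Among the 147, 5 in each direction were named for the size of this difference, and 35 were chosen after their values were seen. This count and the next therefore partly follow from the choice of genes. In 28 of the 29, shCdk8-1 lay further from cntrl in Senexin B, the exception being Slc14a2. Because both lines were compared with the same cntrl libraries, this difference equals the difference between their 2 fold changes. Values are log2 differences with adjusted p (edgeR, quasi-likelihood), and 3 libraries stood on each side.

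Among genes of blood and immune cells that fell in both lines, Hcls1 differed by 3.84 (adjusted p = 4.07e-06), Gimap6 by 4.45 (adjusted p = 1.15e-07), Vav1 by 2.12 (adjusted p = 0.032), Itgb7 by 1.66 (adjusted p = 1.21e-09) and Lcp1 by 1.32 (adjusted p = 0.000223). The alarmin gene Il33, which also fell in both, differed by 1.07 (adjusted p = 0.00167). All of these were lower with shCdk8-1. Plcg2, which rose in both lines, differed by -1.08 (adjusted p = 5.34e-05). The difference fell under 2-fold in Lcp1 without shCdk8-1 replicate 1 (0.99), in Plcg2 without shCdk8-2 replicate 3 (-0.97) and in Il33 without shCdk8-1 replicate 2 (0.91) or 3 (0.93) or shCdk8-2 replicate 3 (1.00).

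Among genes of the matrix, adhesion and cell polarity, Flrt3 differed by 5.56 (adjusted p = 1.12e-07), Pcdh12 by 4.50 (adjusted p = 1.44e-05), Prickle2 by 2.00 (adjusted p = 0.000242), Mmp9 by 1.89 (adjusted p = 2.95e-06), Mmp3 by 1.79 (adjusted p = 0.000842), Tnc by 1.36 (adjusted p = 1.12e-05) and Plat by 1.16 (adjusted p = 3.43e-08), with shCdk8-1 lower in all 7. Thbs1 differed by -2.97 (adjusted p = 1.16e-07) and Dcn, the proteoglycan decorin, by -1.18 (adjusted p = 0.00313), with shCdk8-1 higher. Dcn stood at 0.489, 0.833 and 0.766 CPM in cntrl cells in Senexin B, 1.96, 1.47 and 2.0 with shCdk8-1 and 0.647, 1.01 and 0.761 with shCdk8-2, and was called with shCdk8-1 only.

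Of the contractile genes, Actg2 differed by 2.44 (adjusted p = 0.000293), Synpo2 by 1.20 (adjusted p = 0.0246) and Acta2 by 1.14 (adjusted p = 9.78e-11). Synpo2 with shCdk8-2 against cntrl in Senexin B was -0.89 and was called without shCdk8-2 replicate 1 (-1.01). Of the death and p53 genes, Pmaip1 differed by 4.58 (adjusted p = 1.74e-06) and Fas by 1.09 (adjusted p = 9.73e-05). The endothelial genes went apart, with Cdh5 at 1.49 (adjusted p = 0.00663) and Pecam1 at -1.29 (adjusted p = 5.3e-08). The remaining genes were Psd4 with 5.85 (adjusted p = 7.39e-10), Slc14a2 with -2.41 (adjusted p = 0.000133), Ppargc1a with -2.23 (adjusted p = 9.78e-11), Ctsh with -1.97 (adjusted p = 2.09e-07), Trf with -1.90 (adjusted p = 4.46e-06) and Wif1 with -1.42 (adjusted p = 0.000199).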

How the results depend on the processing

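With an adjusted p under 0.05 and no fold threshold, the calls were 7562 with shCdk8-1, 7268 with shCdk8-2 and 2766 between the hairpins. Tested against a 2-fold change with glmTreat, they were 1035, 814 and 69. Without any filter on low counts they were 1974, 1685 and 317, and with more than 1 CPM in 3 libraries 1251, 1067 and 216. DESeq2 called 1504, 1284 and 237. Library totals in place of TMM gave 1505, 1329 and 260, with the median of all genes at 0.0452, 0.0663 and 0.015. Leaving out each library in turn gave 1554 to 1619, 1342 to 1364 and 239 to 269. Ctsh with shCdk8-2, which was not called, changed sign with library totals (0.05), without shCdk8-2 replicate 3 (0.09) and without cntrl in Senexin B replicate 1 (0.05) or 3 (0.07), and its values on leaving out 1 library ran from -0.15 to 0.09. Dcn with shCdk8-2, also not called, did so without shCdk8-2 replicate 2 (-0.01), in a range of -0.01 to 0.34, and Cdh1 without shCdk8-2 replicate 3 (-0.19), in a range of -0.19 to 1.64. Of 5137 values of named genes under alternatives, 5020 kept direction and side of the threshold and 102 lost a call, 53 of them under glmTreat in 42 genes and 39 on leaving out 1 library in 19 genes. Of 756 list counts, 65 moved by over 1.5 times. The causes were not tested. With 3 libraries a group, differences in genes of a few counts are limited by depth, as in Vav1, Mmp13 and Snai2.

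With the replicate number as a block, 1529, 1320 and 255 genes were called. Libraries with the same label number did not deviate together (correlations of -0.145 to 0.128 between the shCdk8 and cntrl libraries). The numbers were not taken as pairing. For shCdk8-2 the numbers in the file headers do not all match the labels, so neither the correlations nor the block can decide on pairing there. Under the block Cda with shCdk8-1 (0.99) and Vav1 between the hairpins (2.12, adjusted p = 0.0506) were no longer called.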
